A study of Mus musculus with 5 samples.

Results

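Vldlr encodes the very low-density lipoprotein receptor, and its transcript had the smallest p of all genes compared between KO-labelled and wild-type mouse stem and progenitor cells. It is described here with 7 other genes of lipoprotein uptake and sterol control: the receptors Lrp8 and Lrp1, the ligand Apoe, the transcription factor Srebf2 and 3 genes that SREBP2 drives, Hmgcs1, Sqle and Insig1. These 8 genes were taken from a table of 24399 genes, of which 14565 had enough reads to be tested and 7 of the 8 were among them. Because Vldlr was picked for its difference between the groups, the differences of these genes are given as a description, without a test. The cells were LSK cells (lineage-negative, Sca1-positive, cKit-positive), a bone marrow fraction rich in haematopoietic stem cells and multipotent progenitors. They came by flow sorting from femurs, tibiae and iliac crests of C57BL/6 mice aged 12 months. The study used mice with a germ-line knockout, so that every cell of the body carries the altered allele. There were 3 libraries whose titles read KO and 2 whose titles read WT. The genotype field of the KO libraries reads heterozygous, whereas the design text speaks of wild-type, heterozygous and homozygous mice, and they are therefore called KO-labelled. The labels do not state that each library came from its own animal, so the spread behind every p-value is that between these samples and may be technical.

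The very low-density lipoprotein receptor takes up triglyceride-rich lipoproteins that carry apolipoprotein E, and it works together with lipoprotein lipase at the surface of heart, muscle and fat cells. With its close relative ApoER2, the product of Lrp8, it is also the receptor for the secreted protein reelin. Uptake of lipoproteins and synthesis of cholesterol are tied together by SREBP2, the product of Srebf2, which is held in the endoplasmic reticulum by INSIG proteins while sterols are plentiful and is otherwise cleaved in the Golgi to enter the nucleus and switch on its targets.

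Each library held 29964556 to 39691066 counts once 1 transcript per gene was kept, and 3 counts, taken as the floor of detection, equalled 0.0756 to 0.1 CPM. CPM are counts scaled to a common library total with TMM factors. Of 10 LSK surface and stem or progenitor genes, among them Kit, Ly6a, Cd34 and Flt3, 0 passed the test in edgeR, DESeq2 or limma (3 had an unadjusted p under 0.05 in edgeR), and their summed level was 3863 to 4167 CPM in KO-labelled libraries and 4091 to 4161 CPM in WT libraries. KO-labelled library 1 stood apart from the others in its long transcripts. There, the 2467 transcripts over 5000 bases had a median of -0.11 around their own mean on the log2 scale. In the other libraries this median was 0.02 to 0.05. KO-labelled library 1 correlated with the others at 0.9525 to 0.965 over genes on log2 CPM. Pairs of the other libraries correlated at 0.9629 to 0.9802, so these 2 ranges overlapped. Over all genes, 287 passed an adjusted p of 0.05 in edgeR, 115 higher and 172 lower in KO-labelled cells. The number fell to 6 without WT library 1 and to 18 without WT library 2, and it was 675 without KO-labelled library 1 and 135 without KO-labelled library 3.

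RefSeq places 2 start sites of Vldlr on chromosome 19, and the sequences around them are shown because they are the region from which the transcript that differed most clearly is made. The start regions of Srebf2 and Hmgcs1 are set beside them as genes of the sterol pathway, since SREBP2 binds a short sterol regulatory element, usually near a CCAAT box. Each sequence runs 5′ to 3′ on the plus strand of GRCm38.p6, from 250 bases before to 50 bases after the start site, and capitals mark matches to the sterol element core TCACNCCAC, where N is any base, or to the CCAAT box on either strand.
Vldlr, upstream start, chr19:27216234-27216533: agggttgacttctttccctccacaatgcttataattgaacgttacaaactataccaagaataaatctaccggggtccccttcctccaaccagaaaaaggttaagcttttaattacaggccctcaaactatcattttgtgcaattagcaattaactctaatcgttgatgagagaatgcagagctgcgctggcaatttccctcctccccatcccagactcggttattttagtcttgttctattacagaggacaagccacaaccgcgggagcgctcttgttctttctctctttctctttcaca
Vldlr, downstream start, chr19:27216770-27217069: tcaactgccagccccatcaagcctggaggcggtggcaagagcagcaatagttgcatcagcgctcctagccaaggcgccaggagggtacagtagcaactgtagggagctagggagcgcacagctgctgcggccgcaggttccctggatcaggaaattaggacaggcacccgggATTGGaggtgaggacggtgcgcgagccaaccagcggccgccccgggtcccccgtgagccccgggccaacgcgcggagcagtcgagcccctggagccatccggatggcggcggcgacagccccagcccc
Srebf2, chr15:82147019-82147318: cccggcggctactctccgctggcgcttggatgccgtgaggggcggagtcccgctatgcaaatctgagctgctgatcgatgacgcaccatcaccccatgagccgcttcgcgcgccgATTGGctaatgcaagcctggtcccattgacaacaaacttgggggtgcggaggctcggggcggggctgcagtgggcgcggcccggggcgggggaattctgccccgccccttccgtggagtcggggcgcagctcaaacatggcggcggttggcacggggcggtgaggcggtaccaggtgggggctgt
Hmgcs1, chr13:119690101-119690400: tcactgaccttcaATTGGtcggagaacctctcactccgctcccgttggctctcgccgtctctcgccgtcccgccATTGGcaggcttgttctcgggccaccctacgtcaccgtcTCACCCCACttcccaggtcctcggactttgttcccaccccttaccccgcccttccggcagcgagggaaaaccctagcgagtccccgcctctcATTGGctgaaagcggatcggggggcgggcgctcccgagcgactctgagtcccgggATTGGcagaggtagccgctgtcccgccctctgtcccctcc

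The upstream start region of Vldlr had a GC content of 43%, no CCAAT box and no sterol element core. The downstream one had a GC content of 68% and a CCAAT box, read as ATTGG, 78 bases before the start. Among 12 start regions of 7 of the 8 genes (that of Sqle was not used here), only the Hmgcs1 region held the sterol element core, 137 bases before its start, with 4 CCAAT boxes around it. That core was present in 1.242% of 32851 mouse start regions of the same length, searched on both strands. The CCAAT box was found in 4 of the 12 regions and in 37.41% of all regions, the GC box GGGCGG in 5 of the 12 and in 35.66% of all, and the E box CACGTG in 1 of the 12, that of Insig1, and in 7.15% of all. None of the 4 motifs contains another. These matches describe the letters of the windows only, and no measurement of binding was used here.

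Vldlr was 2.90-fold lower in KO-labelled than in WT LSK cells. KO-labelled libraries 1 to 3 held 2844, 3584 and 3669 of its reads, and WT libraries 1 and 2 held 7550 and 10093. Scaled, these were 78.7, 91.7 and 92.9 CPM against 251.8 and 258.2 CPM. Every KO-labelled library was below both WT libraries, and the lowest WT value was 2.71 times the highest KO-labelled one, while the ratio of the largest to the smallest value was 1.18 within KO-labelled and 1.02 within WT libraries. The group means were 87.8 ± 7.86 CPM (SD, n = 3) and 255.0 ± 4.51 CPM (SD, n = 2). The log2 fold change was -1.54 with a standard error of 0.09 and a 95% interval of -1.74 to -1.34, or a level of 0.344 of WT (95% interval 0.299 to 0.396). This was the difference for which the gene was chosen, by an unadjusted p = 6.64e-10 in the quasi-likelihood test of edgeR (adjusted p = 9.66e-06), ahead of Pianp at 3.96e-09. In these bulk samples, fewer cells that express Vldlr and less Vldlr RNA per cell cannot be told apart.

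**Figure D1:**
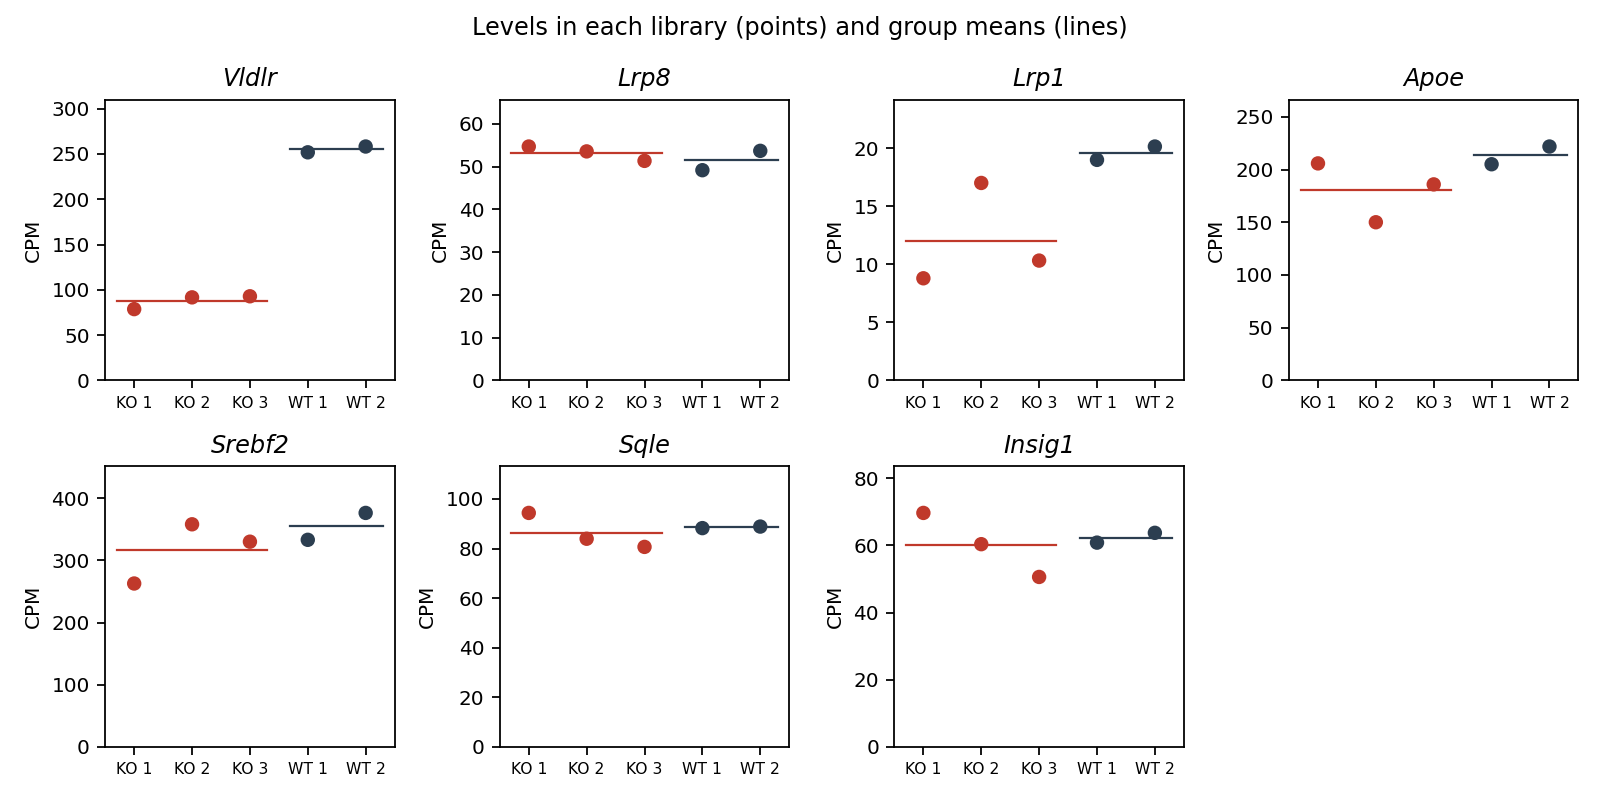
Level in CPM (vertical axes, each starting at 0) of 7 of the 8 genes in each library; red points are KO-labelled libraries, dark points WT libraries and lines group means, and Hmgcs1, with 0 counts throughout, is not drawn. For Vldlr the KO-labelled points lie between 78.7 and 92.9 CPM and the WT points at 251.8 and 258.2 CPM, whereas for Lrp8, Sqle and Insig1 the groups interleave.

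Vldlr was an abundant transcript in WT LSK cells, with a mean CPM above that of 95.18% of tested genes. Of the 702 genes at least as abundant there as Vldlr, 17 were lower in KO-labelled cells past the threshold, and 0 had a log2 fold change below that of Vldlr. By size alone it ranked 15 among the 172 lower genes. Vldlr was chosen by its p in these same libraries, so these comparisons are a description without a test. Without KO-labelled library 1, the library that stood apart, the Vldlr log2 fold change was -1.47. With each library left out in turn it stayed between -1.58 and -1.47. These fits reuse the libraries by which Vldlr was chosen, so they describe the difference and add no separate support. The RefSeq transcript kept for Vldlr is 7971 bases long. The other Vldlr transcript, of 3855 bases, had 99.32% to 100% of its counts, so the table does not tell the 2 forms apart.

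Ratios within a library, which do not depend on the scaling, give the Vldlr difference in another form. Vldlr was chosen for that difference, and the groups overlapped for Lrp8 and Sqle, so the ratios add no separate support. For each read of Lrp8 there were 1.44, 1.71 and 1.81 reads of Vldlr in the KO-labelled libraries and 5.12 and 4.81 in the WT libraries. Against Sqle the ratios were 0.834, 1.09 and 1.152 in KO-labelled and 2.85 and 2.91 in WT libraries. For both genes the lowest WT ratio lay above the highest KO-labelled ratio.

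Per length, Vldlr was not the most abundant of these genes. In WT libraries Apoe led with 151.6 ± 8.47 CPM per kb of transcript (n = 2 here and for the following values), followed by Srebf2 with 69.9 ± 6.03. Sqle with 32.1 ± 0.159 and Vldlr with 32.0 ± 0.566 did not differ beyond their spread. Below them came Insig1 with 23.1 ± 0.764, Lrp8 with 19.4 ± 1.21 and Lrp1 with 1.31 ± 0.0545 CPM per kb. In KO-labelled libraries Vldlr stood at 11.01 ± 0.986 CPM per kb (n = 3), below Lrp8 with 20.1 ± 0.645 and Insig1 with 22.3 ± 3.54. This order depends on the length used, as the long form of Vldlr may not be the one expressed. Per kb of coding sequence, Vldlr stood at 97.4 ± 1.72 in WT and 33.5 ± 3.0 in KO-labelled libraries. It lay above Sqle in the former (51.6 ± 0.255) and below it in the latter (50.3 ± 4.17). By this measure Vldlr lay above Lrp8 in KO-labelled libraries (20.4 ± 0.654), while Insig1 (77.5 ± 12.3) stayed above Vldlr. The kept Lrp8 transcript has 2610 coding bases of 2648, and that of Vldlr 2619 of 7971.

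The other reelin receptor, Lrp8, did not follow Vldlr. It stood at 54.7, 53.6 and 51.4 CPM in KO-labelled libraries and 49.2 and 53.7 CPM in WT libraries. The groups overlapped, with means of 53.2 ± 1.71 (n = 3) and 51.5 ± 3.20 CPM (n = 2) and a log2 fold change of 0.05 (standard error 0.11, 95% interval -0.19 to 0.28). This interval does not reach that of Vldlr, the gene chosen for its difference. A second, non-coding Lrp8 transcript had 68.56% to 75.77% of the counts of the kept one. As for Vldlr, transcripts of 1 gene can hold the same reads, so this share is not the level of the non-coding form.

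Lrp1, a large endocytic receptor for many ligands including apolipoprotein E, was low and more variable. Its levels were 8.80, 17.0 and 10.3 CPM in KO-labelled libraries and 19.0 and 20.2 CPM in WT libraries. All KO-labelled values lay below the WT values, but KO-labelled library 2 lay close to them. The means were 12.1 ± 4.37 (n = 3) and 19.6 ± 0.811 CPM (n = 2), and the log2 fold change was -0.70 (standard error 0.25, 95% interval -1.24 to -0.16). Without KO-labelled library 2 it was -1.03, and without KO-labelled library 1 it was -0.52. The Lrp1 transcript, at 14888 bases, is among the long transcripts that were low in KO-labelled library 1, and with an offset for transcript length the value was -0.53. The part of this length trend in the Lrp1 value was otherwise not tested.

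Of the 7 tested genes, 1, Vldlr itself, passed the threshold, in the lower direction. Of all tested genes 1.97% did, 0.79% higher and 1.18% lower, and 0.302% were at least 2-fold lower and past it, as Vldlr was. Nothing is read from the count of 1, because Vldlr was chosen for it. The groups did not overlap for 2 of the 7, Vldlr and Lrp1, both lower. Over all tested genes this was so for 32.8%: in 16.3% of genes the KO-labelled values were the lower ones and in 16.5% the higher ones.

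None of the rest of this receptor family passed in edgeR. Of 15 further family genes, 11 were tested, with 0 higher and 0 lower past the threshold, 3 at an unadjusted p under 0.05, and 1 call each in DESeq2 and limma. They had a median log2 fold change of -0.20 against 0.00 over all tested genes. Of the 11, 9 lay below 0, against 49.87% of all tested genes. In edgeR, 1.97% of all tested genes passed and 13.8% had an unadjusted p under 0.05. Among these further genes, the Wnt co-receptors Lrp5 and Lrp6 had the most reads. Lrp5 had means of 146.8 ± 17.5 against 169.8 ± 4.94 CPM (log2 fold change -0.21), and Lrp6 of 140.8 ± 9.24 against 152.9 ± 4.55 CPM (log2 fold change -0.12). Sorl1, a sorting receptor named after its values were seen, had 28.02, 42.7 and 34.7 CPM against 56.8 and 48.0 CPM, with a log2 fold change of -0.57 (standard error 0.16) that missed the threshold at an adjusted p = 0.112 in edgeR's test. It passed with DESeq2 (adjusted p = 0.0467), in weighted limma (0.033), with no count filter (0.0387) and without KO-labelled library 2 (0.0231).

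Genes that carry these receptors into the cell, help them fold or turn them over form the next list. Of 11 tested, 0 rose and 0 fell in edgeR, DESeq2 or limma, 1 had an unadjusted p under 0.05 in edgeR, and the median log2 fold change was -0.05. The heavy chain of clathrin, Cltc, had means of 476 ± 11.3 against 519 ± 31.9 CPM (log2 fold change -0.12), and the adaptor subunit Ap2b1 464 ± 10.4 against 429 ± 21.9 CPM (log2 fold change 0.11). Mylip, the ubiquitin ligase that marks Vldlr and Lrp8 for breakdown, was named after its values were seen. It stood at 38.9, 43.5 and 44.6 CPM in KO-labelled libraries and 39.3 and 48.9 CPM in WT libraries, with overlapping groups and a log2 fold change of -0.06 (standard error 0.13).

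**Figure D2:**
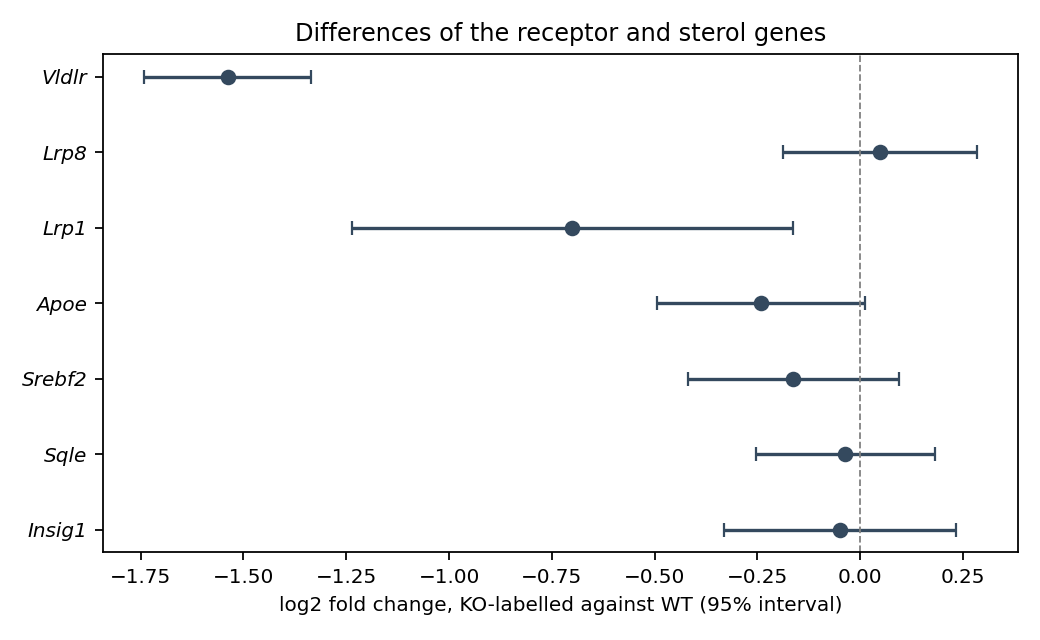
Log2 fold change of KO-labelled against WT libraries (horizontal axis, with 95% interval) for 7 of the 8 genes. The interval of Vldlr, the gene chosen for its difference, is -1.74 to -1.34 and lies below all others. That of Lrp1, -1.24 to -0.16, is the only other one that leaves out 0. The intervals are not adjusted for the number of genes.

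Apoe encodes apolipoprotein E, the ligand that both Vldlr and Lrp8 bind. It stood at 205.8, 150.0 and 185.9 CPM in KO-labelled libraries and 205.0 and 221.8 CPM in WT libraries. KO-labelled library 1 lay within the WT range and the other two below it, so the groups overlapped. The means were 180.6 ± 28.3 (n = 3) and 213.4 ± 11.9 CPM (n = 2), with a log2 fold change of -0.24 (standard error 0.12, 95% interval -0.49 to 0.01). Without KO-labelled library 1 the value was -0.35 and passed the threshold (adjusted p = 0.0418, edgeR). Of 9 other tested ligands and apolipoproteins, 0 rose and 0 fell in edgeR, DESeq2 or limma, and 0 had an unadjusted p under 0.05 in edgeR. Their median log2 fold change was -0.46. Clusterin, Clu, also a lipoprotein component, had 81.8, 26.7 and 39.2 CPM against 77.7 and 87.4 CPM. KO-labelled library 1 again lay within the WT range. Its log2 fold change was -0.75 (standard error 0.56, adjusted p = 0.666, edgeR), and without that library it was -1.33 (adjusted p = 0.000192). Thrombospondin 1, Thbs1, was the other abundant ligand, and a single library, KO-labelled library 3 at 119.0 CPM, stood above the rest at 18.6 to 45.3 CPM. Reln, the gene of reelin, was named after its values were seen and was read at 0.914 to 2.25 CPM over the 5 libraries. Transcripts of the apolipoproteins Apoa4, Apoa5 and Apoc3 had 0 counts in every library.

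The transcript of SREBP2 itself, Srebf2, varied within the KO-labelled group. It stood at 262.9, 358.2 and 330.2 CPM in KO-labelled libraries and 333.2 and 376.5 CPM in WT libraries. KO-labelled library 1 was the lowest and library 2 lay between the WT values. The means were 317.1 ± 49.0 (n = 3) and 354.9 ± 30.6 CPM (n = 2), and the log2 fold change was -0.16 (standard error 0.12, 95% interval -0.42 to 0.09). Counts report the RNA of Srebf2 and not the cleavage of its protein.

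Insig1 encodes a protein that holds SREBP2 back and is itself among its targets. Its levels were 69.7, 60.4 and 50.6 CPM in KO-labelled libraries and 60.8 and 63.7 CPM in WT libraries. The KO-labelled values lay on either side of the WT values, with means of 60.2 ± 9.54 (n = 3) and 62.3 ± 2.06 CPM (n = 2) and a log2 fold change of -0.05 (standard error 0.13, 95% interval -0.33 to 0.23).

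Sqle encodes squalene epoxidase, an early oxygen-dependent step of sterol synthesis. It stood at 94.4, 84.0 and 80.7 CPM in KO-labelled libraries and 88.2 and 88.9 CPM in WT libraries, again with KO-labelled values on both sides. The means were 86.3 ± 7.16 (n = 3) and 88.6 ± 0.438 CPM (n = 2), with a log2 fold change of -0.04 (standard error 0.10, 95% interval -0.25 to 0.18). The intervals of Srebf2, Insig1 and Sqle all lay above that of Vldlr, the gene chosen for its difference.

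Hmgcs1, the synthase that makes HMG-CoA, was listed at 0 counts in all 5 libraries, for both of its RefSeq transcripts. No fold change is given for it. A count of 0 allows up to 0.0756 to 0.1 CPM per library for counting error, and Acat2, which acts just before it in the pathway, was read at 30.7 CPM on average in KO-labelled libraries and 26.4 CPM in WT libraries. Why the table lists Hmgcs1 at 0 was not tested.

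None of the other enzymes of cholesterol synthesis passed the test. All 19 were tested, 0 rose and 0 fell in edgeR, DESeq2 or limma, 0 had an unadjusted p under 0.05 in edgeR, and each had a log2 fold change within 0.5 of 0 (from -0.24 to 0.25, median -0.05). Lbr, a sterol reductase of the nuclear envelope, had the most reads, at 353 ± 4.36 against 339 ± 27.7 CPM (log2 fold change 0.06). Of the 12 genes that process SREBP or control it, 0 rose and 0 fell in edgeR, DESeq2 or limma, 2 had an unadjusted p under 0.05 in edgeR, and the median was 0.00. Those 2, named after their values were seen, were Srebf1, the gene of the related factor SREBP1 (88.4 ± 8.37 against 112.2 ± 20.3 CPM, log2 fold change -0.34), and the site-2 protease Mbtps2 (36.3 ± 5.37 against 47.9 ± 3.60 CPM, log2 fold change -0.40). The site-1 protease Mbtps1, which makes the first cut in SREBP2, had means of 211.7 ± 1.13 and 210.5 ± 13.6 CPM.

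Among 14 other tested sterol-regulated genes, 0 rose and 0 fell in edgeR, 2 had an unadjusted p under 0.05, DESeq2 and limma called 1 each, and the median was -0.06. The abundant lipogenic genes Scd2, a fatty acid desaturase (829.5 ± 62.6 against 854.2 ± 14.3 CPM), and Acly, which supplies acetyl-CoA (526.7 ± 17.6 against 479.3 ± 2.11 CPM), had log2 fold changes of -0.04 and 0.14. The related desaturase Scd1, named after its values were seen, was at 17.7, 13.2 and 11.6 CPM in KO-labelled libraries and 26.2 and 23.7 CPM in WT libraries. Its groups did not overlap, and its log2 fold change of -0.82 (standard error 0.19) missed the threshold at an adjusted p = 0.0529 in edgeR's test. It passed with DESeq2 (adjusted p = 0.0103), limma with sample weights (0.00117) and no count filter (0.00804), and without KO-labelled library 1 (0.00175).

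The list of cholesterol export and storage genes, which the oxysterol receptor LXR controls in part, held 1 call in edgeR among 13 tested genes, with a median of -0.13. DESeq2 called 2 and limma with sample weights 1, and 5 had an unadjusted p under 0.05 in edgeR. Over all tested genes, 1.97% passed in edgeR and 13.8% had an unadjusted p under 0.05. Abcg4, a sterol exporter, rose from 1.10 and 2.07 CPM in the WT libraries to 5.18, 4.53 and 5.77 CPM in the KO-labelled libraries. All KO-labelled values lay above the WT values, and the log2 fold change was 1.69 (standard error 0.40, adjusted p = 0.0494 in edgeR's test). The call passed in 5 of 12 alternative settings and was lost, among others, when KO-labelled library 2, KO-labelled library 3 or either WT library was left out. The nuclear receptor gene Rxra, a partner of LXR named after its values were seen, was at 21.0, 24.6 and 21.7 CPM against 32.4 and 31.0 CPM. Its log2 fold change of -0.50 (standard error 0.14) missed the threshold in edgeR (adjusted p = 0.113) and passed with DESeq2 (adjusted p = 0.0492) and in limma with sample weights (adjusted p = 0.0423). Npc2 (log2 fold change -0.03) and Nceh1 (-0.13), which handle cholesterol in lysosomes and its stored esters, were among the most abundant genes of this list. Abca1, the main cholesterol efflux pump, was named after its values were seen and stood at 44.7, 43.3 and 57.9 CPM against 60.1 and 65.6 CPM (log2 fold change -0.37, standard error 0.13, adjusted p = 0.229, edgeR).

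Of 8 tested lipases and transfer proteins, 0 rose and 0 fell in edgeR, DESeq2 or limma, and 0 had an unadjusted p under 0.05 in edgeR. Lipa, the lysosomal lipase that frees cholesterol from internalised particles, had means of 96.0 ± 5.46 against 106.4 ± 6.94 CPM (log2 fold change -0.15), and Lmf1, which matures lipases, a log2 fold change of -0.02. Lipoprotein lipase itself, Lpl, named after its values were seen, ranged from 8.60 to 24.9 CPM in KO-labelled libraries and from 10.1 to 18.9 CPM in WT libraries. Of 8 tested scavenger receptors, 0 rose and 0 fell in edgeR or limma, DESeq2 called 1, and 1 had an unadjusted p under 0.05 in edgeR. Scarb1, the receptor for high-density lipoprotein, stood at 115.0 ± 7.19 against 118.0 ± 0.530 CPM (log2 fold change -0.04), and Scarb2 had a log2 fold change of -0.07. The fatty acid transporter Cd36, named after its values were seen, was at 5.43, 4.61 and 9.90 CPM in KO-labelled libraries and 2.47 and 2.05 CPM in WT libraries. Its log2 fold change of 1.56 (standard error 0.39) missed the threshold at an adjusted p = 0.0664 in edgeR's test and passed in 5 of 12 alternatives: with DESeq2 (adjusted p = 0.00942), with no count filter (0.01), with the length offset (0.0487), without KO-labelled library 1 (0.0147) and without KO-labelled library 2 (0.0305).

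**Figure D3:**
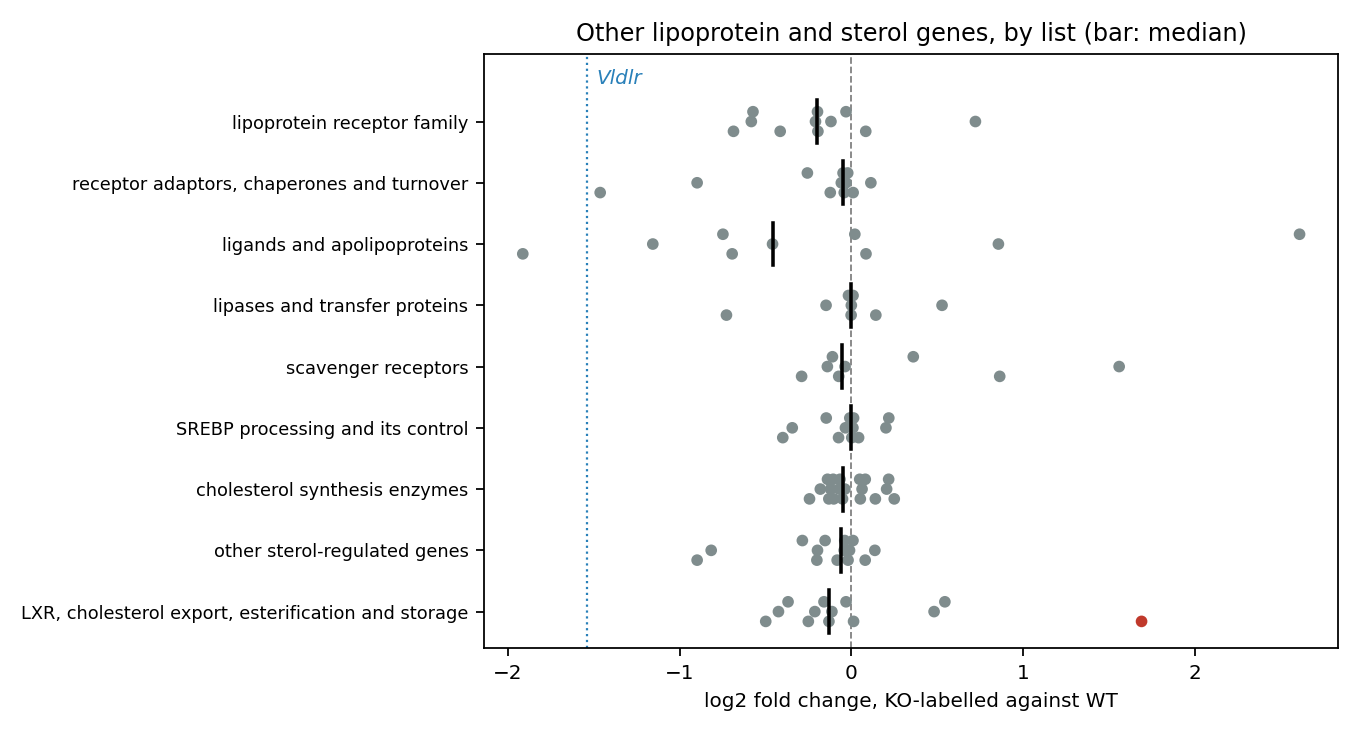
Log2 fold change of KO-labelled against WT libraries (horizontal axis) for each tested gene of 9 lists of lipoprotein and sterol genes, which leave out the 8 genes themselves; grey points did not pass the test, the red point (Abcg4) did, black bars are list medians and the dotted line is Vldlr. The cholesterol synthesis enzymes lie between -0.24 and 0.25, and the list medians lie between -0.46 and 0.00.

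Counted once each, 103 of 120 further pathway genes were tested, 1 rose and 0 fell. This is 0.971% of them, against 1.97% of all tested genes. At an unadjusted p under 0.05 there were 14, or 13.59%, of which 2 were higher and 12 lower. Over all tested genes this share was 13.8%, with 6.76% higher and 7.02% lower. No test was made of the split by direction. Their median log2 fold change was -0.05, with 84 of 103 within 0.5 of 0, against 81.82% of all tested genes. The groups did not overlap for 34 of them, or 33.01%, against 32.8% of all tested genes. The DESeq2 test called 5 and limma with sample weights 3, and 0 were called without KO-labelled library 3, without either WT library or with transcripts summed.

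The genes whose profile over the 5 libraries was closest to that of Vldlr came from outside the lipoprotein pathway. Likeness was measured over 12728 genes with a mean of at least 1 CPM as the root mean square distance between log2 CPM values, each gene centred on its own mean. The closest was Pcdhb17, a clustered protocadherin (distance 0.088), at 1.36, 1.43 and 1.57 CPM in KO-labelled libraries and 3.74 and 4.27 CPM in WT libraries. Tgm1, a transglutaminase, followed at 0.105 with 7.34, 9.21 and 8.58 against 20.6 and 22.0 CPM. Gm16386 (0.134), Shisa7 (0.142) and the non-coding RNA gene Snhg18 (0.159) came next, with log2 fold changes of -1.39, -1.44 and -1.73. All 5 were far less abundant than Vldlr, at 1.07 to 22.0 CPM. When each profile was first scaled to its own standard deviation, the 5 closest were Pdk1, Wls, Pianp, Tgm1 and Hook1, of which only Tgm1 was shared with the first 5. Of the other lipoprotein and sterol genes described above, Lrp1 was nearest, at a distance of 0.469 and rank 318, and Lrp8 the farthest, at 0.788 and rank 6863. Because these genes were ranked on the same 5 libraries that differ for Vldlr, their likeness is a description without a test.

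None of the tested genes beside Vldlr on its chromosome passed the threshold. They were chosen by position, after earlier results were known, as the 3 nearest tested genes on either side in the RefSeq order of GRCm38.p6, with 7 untested genes between them. Smarca2, a chromatin remodelling ATPase, stood at 391 ± 33.6 CPM in KO-labelled libraries and 380 ± 16.7 CPM in WT libraries, or 0.04 on the log2 scale (standard error 0.09, 95% interval -0.15 to 0.23). On the other side, Pum3, an RNA-binding protein gene, stood at 185.8 ± 5.92 against 182.8 ± 8.34 CPM, or 0.02 on the log2 scale (standard error 0.08, 95% interval -0.16 to 0.20). The transcription factor gene Rfx3 had -0.08 (standard error 0.14), the non-coding 4931403E22Rik -0.23 (standard error 0.25) and Glis3 -0.21 (standard error 0.45). Kank1, the farthest gene on the Smarca2 side, was low, at 0.415, 0.461 and 0.937 CPM against 3.0 and 1.71 CPM. Its log2 fold change of -1.95 had a wide 95% interval of -3.42 to -0.48 and did not pass (adjusted p = 0.205, edgeR). Of these 6 neighbours, 0 passed in edgeR, DESeq2 or limma, and 1, Kank1, had an unadjusted p under 0.05 in edgeR.

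**Figure D4:**
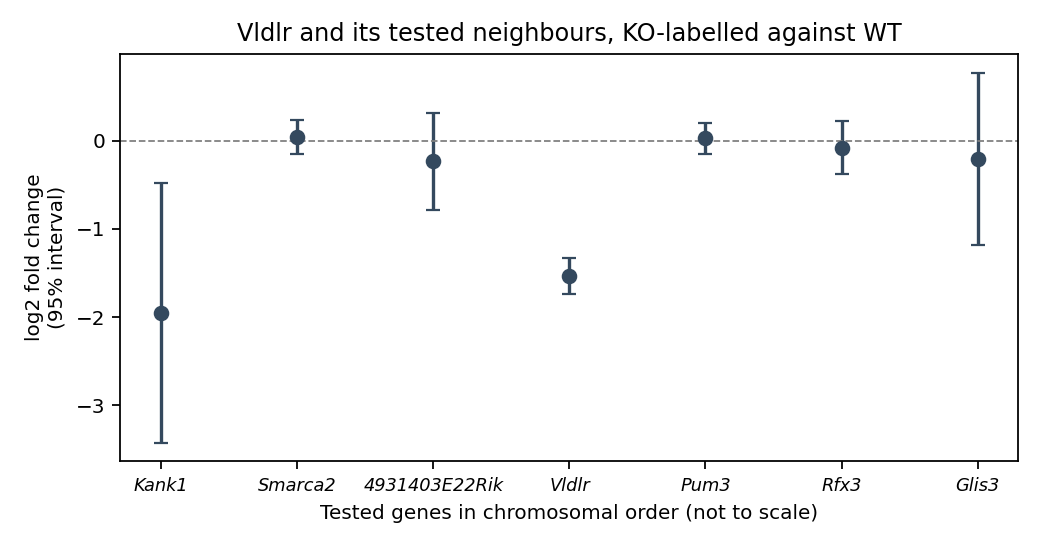
Log2 fold change of KO-labelled against WT libraries (vertical axis, with 95% interval) for Vldlr and the 3 nearest tested genes on either side, in chromosomal order and not to scale. Smarca2 and Pum3 lie at 0.04 and 0.02, while Vldlr lies at -1.54.

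Markers of other cells moved with the groups in part, although the sort for lineage-negative cells is meant to remove mature blood cells. Of 11 tested erythroblast genes, 4 rose in edgeR, against 0.79% of all tested genes. DESeq2 called 6 of them, limma with sample weights called 3, and 7 had an unadjusted p under 0.05 in edgeR. Over all 14565 tested genes, DESeq2 called 575, limma with sample weights 624, and 13.8% had an unadjusted p under 0.05 in edgeR. The edgeR calls over all tested genes were 0.79% higher and 1.18% lower, for this and the following lists. Hba-a1 and Hba-a2 had the same counts in every library (0.947 to 4.89 CPM), so 1 set of reads stands for 2 of the 11 genes. The summed level of the 11 was 326 to 413.4 CPM in KO-labelled libraries and 230.3 to 234 CPM in WT libraries. Of 9 megakaryocyte genes, 2 fell, Gp1ba and Itga2b, with 2 calls each in DESeq2 and limma and 5 at an unadjusted p under 0.05 (sums of 798.9 to 1168 against 1090 to 1315 CPM). Among those 5, Pf4 and Ppbp were higher in KO-labelled libraries, with log2 fold changes of 0.79 and 1.46. Of 10 neutrophil and monocyte genes, 1 rose and 2 fell in edgeR, while DESeq2 called 7, limma with sample weights called 5, and 9 had an unadjusted p under 0.05. Their sums were 2694 to 3384 against 3716 to 4066 CPM. Of 10 tested macrophage genes, 0 passed in edgeR, DESeq2 or limma, and 0 had an unadjusted p under 0.05 in edgeR (65.2 to 89.6 against 88.4 to 94.0 CPM). Of 9 endothelial genes, 1 fell, Cldn5, the count in DESeq2 and limma also being 1 (153.1 to 232.6 against 197.1 to 217.5 CPM). Of 5 tested stromal genes, 1 fell, Pdgfrb, again with 1 call each in DESeq2 and limma (73.1 to 98.1 against 129.9 to 139.5 CPM), and the fat cell marker Adipoq had 0 counts in every library. The same counts, 0 by each test, held for 7 tested B cell genes (51.0 to 58.2 against 44.5 to 56.3 CPM). The part of these cells in the Vldlr difference was not tested.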

How the data were processed

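Sorted LSK cells gave stranded messenger RNA libraries, per the labels' protocols. The table deposited by the authors holds unscaled read counts of 33862 RefSeq transcripts for the 5 libraries. STAR, Subread 1.4.5-p1, featureCounts and the build mm9 (NCBIM37) are named, per the submitters' processing notes. How strand and reads shared by overlapping genes were handled is not given in the sources used here. Whether the counts of neighbours such as 4931403E22Rik and Smarca2 hold reads of each other was therefore not settled.

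Symbols were taken from RefSeq tables of GRCm38.p6 (33485 transcripts) and GENCODE (188), while 189 matched neither, and transcripts with no symbol made up 0.362% to 0.459% of counts. For each gene the transcript with the most counts was kept. Lengths are those of GRCm38, not of the counting annotation, and start-region sequences are RefSeq's. All transcripts together had 48113632 to 63736139 counts per library.

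Genes passing filterByExpr were scaled (TMM) and compared by the robust quasi-likelihood test of edgeR 4.0.16 in R 4.3.3, two-sided, with p-values adjusted after Benjamini and Hochberg over all 14565 genes and 0.05 as threshold. The biological coefficient of variation was 18.9%. The test was checked on simulated data of this design. Log2 CPM used a prior count of 2; tables were made in Python 3.11.15 (scipy 1.17.1). Groups came from the titles.

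The genes described and the gene lists were chosen with earlier results of these data known. Besides the 8 genes, the rule named up to 4 genes per list that passed, by smallest p, or the 2 most abundant if fewer than 2 passed, and the 5 genes with the profile nearest to Vldlr. Others are marked as named after their values were seen, and so were the cell markers, Pianp, Acat2 and the genes at 0. Some genes, and results that need them, were left out of the text. Alternatives were RLE scaling, DESeq2 1.42.0, limma 3.58.1 with sample weights, no count filter, summed transcripts, a replicate block, a length offset and each library left out.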

Additional observations from a re-analysis of the deposited data

How the results depend on the processing

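Vldlr kept its direction in all 12 alternatives, with log2 fold changes from -1.58 to -1.44. The alternatives reuse the libraries by which Vldlr was chosen, so they add no separate support. With each library left out, the values ran from -0.0080 to 0.11 for Lrp8, from -1.03 to -0.52 for Lrp1, which passed without KO-labelled library 2 (adjusted p = 0.0212, edgeR), and from -0.35 to -0.13 for Apoe. The cause of these shifts was not tested. Over all tested genes, DESeq2 called 575 (264 higher, 311 lower), limma with sample weights 624 (247 and 377), a fit without the count filter 455 (200 and 255) and the length offset 351 (192 and 159), against 287 (115 and 172). The range over fits that omit 1 library was 6 to 675 calls, 2 to 312 of them higher and 4 to 363 lower. Where a WT library is omitted, the lone WT sample is taken to vary as the KO-labelled ones do. Among the 103 pathway genes, DESeq2 called 5 (2 higher, 3 lower), limma with sample weights 3 (0 and 3), the fit without the count filter 4 (2 and 2), summed transcripts 0 (0 and 0) and the length offset 2 (2 and 0), against 1 (1 and 0). Omitting 1 library gave 0 to 4 calls, 0 to 2 higher and 0 to 2 lower.

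Same-numbered KO-labelled and WT libraries deviated from their group means together at correlations of 0.043 and 0.017 over genes. With 2 WT libraries the deviations of 1 mirror those of the other, so the 2 values are not independent. They cannot show whether same-numbered libraries share more than a number. With the number as a replicate block, 160 genes passed, 54 higher and 106 lower, 0 of the pathway genes passed, 0 higher and 0 lower, and the value of Vldlr was -1.58 (adjusted p = 6.08e-05, edgeR).

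With 3 against 2 libraries and a coefficient of variation of 18.9%, small differences could not be resolved: the 95% interval of Sqle, for example, reached from -0.25 to 0.18. Genes with few reads, such as Idi1, Reln and Kank1, had wider intervals.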
